A study of Mus musculus with 2 samples.

Results

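The cytosolic ribosome carries about the same set of ribosomal proteins in every cell, each encoded in the mouse by a gene of its own, and transcripts of these genes are among the most abundant of a cell. Proteins of the small subunit are named Rps and those of the large subunit Rpl, with the laminin-receptor-related protein Rpsa and the stalk proteins Rplp0, Rplp1 and Rplp2 under names of their own. Their mRNAs are known for a tract of pyrimidines directly at the cap, the 5′ terminal oligopyrimidine (TOP) motif, through which mTORC1 signalling sets how well they are translated. The members described here were chosen by symbol from the deposited gene list: Rpl or Rps followed by a digit, Rpsa, Rplp0, Rplp1 and Rplp2, without the Rps6k kinases and without symbols that contain -ps. This gave 86 of 32285 genes, 34 with names in Rps and 52 with names in Rpl. Rps19bp1, which encodes a protein that binds Rps19, and Rpl7l1, which encodes an Rpl7-like protein, are named like members and met the rule. Fau, which encodes a ribosomal protein fused to a ubiquitin-like sequence, did not meet it and is given beside the members.

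Single lung cells came from Cdh16CreERT2 mice with a tdTomato reporter, in which Cdh16-driven recombination after tamoxifen marks cells in red. Sorting took red cells from those stained for CD326, the epithelial surface protein Epcam. Both time points shared this genotype, and both had tamoxifen from embryonic day 12.5, at 0.1 mg per kg by injection or 0.4 g per kg of food, the route of each library not being given in the sources used here. The labels give the reporter as tdTomatoflox/flox and the design text gives another form of it. The E18.5 library came from fetal lung and the P10 library from lung of postnatal day 10, although the labels name the P10 tissue embryonic, and both were labelled batch 1. There was 1 library per time point, so differences between E18.5 and P10 have no replicate check, no p-value was made, and age, animal and library cannot be told apart. Intervals below are exact 95% intervals that cover counting error only.

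The E18.5 library held 12739 barcodes and 137837590 UMIs (unique molecular identifiers, each standing for 1 captured transcript end), and the P10 library 14503 barcodes and 171205348 UMIs. A cell was kept if it had 500 genes and 1000 UMIs or more and no more than 20% of mitochondrial UMIs, which held for 12027 and 14086, with medians of 8959 and 10250.5 UMIs. Both libraries shared 59 barcodes, 52 of them among the cells kept. The labelled cell type is alveolar epithelium, yet endothelial-, fibroblast-, pericyte- and immune-like clusters were present in both libraries. RNA of Sftpc, the surfactant protein C gene that defines type 2 alveolar (AT2) cells, was found in classes that should lack it: its level in AT1-like cells at E18.5 was 6.43% of that in AT2-like cells, in T- and NK-like cells at P10 14.5%, and in endothelial-like cells 31.1% at E18.5 and 39.4% at P10.

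Summed over all kept cells, the members made up 16.8% of the UMIs at E18.5 (23096269 of 137114399 UMIs, interval 16.84 to 16.85) and 10.5% at P10 (17870299 of 170879577 UMIs, interval 10.45 to 10.46). The P10 share was 0.621 of the E18.5 share. In single cells the share had a median of 16.6% and a middle 50% of 14.3 to 18.8% at E18.5, against a median of 10.2% and a middle 50% of 9.18 to 11.4% at P10, so that the middle ranges of both libraries lay apart. The nuclear RNAs Malat1 and Neat1 together moved the other way, from a median of 1.57% of a cell's UMIs at E18.5 to 2.53% at P10. Their part in the lower ribosomal share was not tested.

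AT2-like cells, which make surfactant, were the alveolar class present in both libraries. The members took 17.0% of the UMIs of 2672 AT2-like cells at E18.5 and 10.1% of 7730 AT2-like cells at P10, a ratio of 0.597 (interval 0.596 to 0.598). The middle 50% of cells lay between 15.1 and 18.6% at E18.5 and between 9.30 and 11.1% at P10. This difference was present at every depth: from the shallowest to the deepest quartile of AT2-like cells the share was 17.0, 17.3, 16.6 and 17.1% at E18.5 and 10.4, 10.4, 10.1 and 9.91% at P10. The single clusters of the class showed it too, with 17.3 and 16.7% in both AT2-like clusters at E18.5 and 10.1 to 10.2% in those at P10. Malat1 and Neat1 had a median of 1.29% in AT2-like cells at E18.5 and 2.57% at P10.

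**Figure D1:**
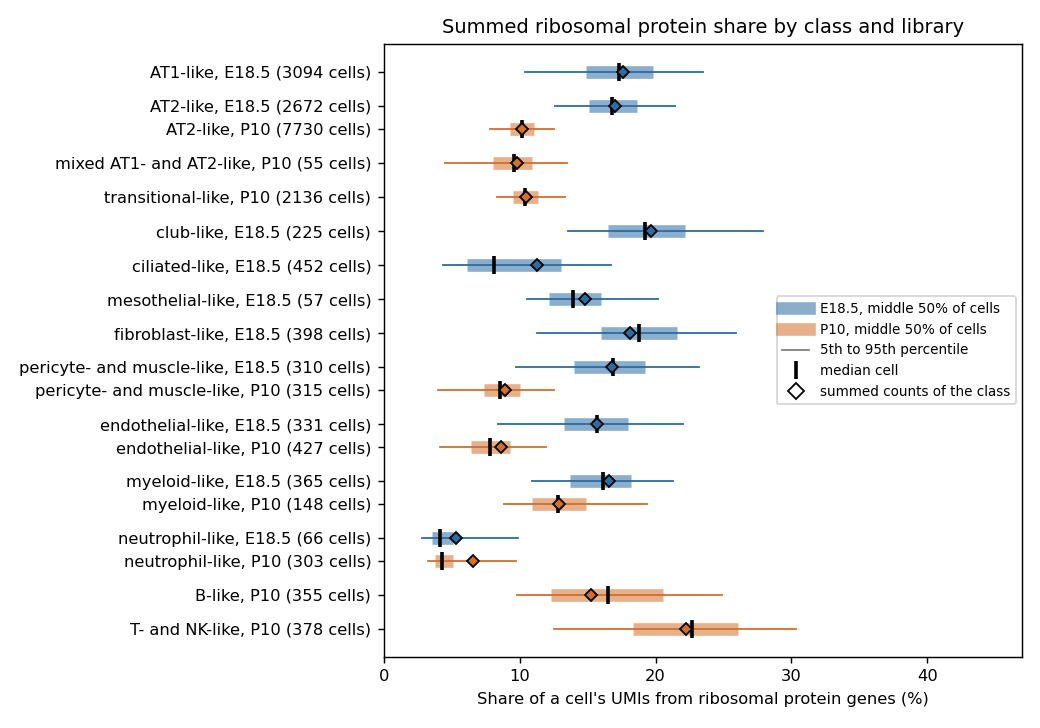
Share of a cell's UMIs (%, horizontal axis) that came from the 86 ribosomal protein genes, for each class with at least 50 cells, E18.5 in blue and P10 in orange. Thick bars span the middle 50% of cells, thin lines the 5th to 95th percentile, ticks the median cell and diamonds the summed counts of the class. AT2-like cells sit at 17.0% at E18.5 and 10.1% at P10, while T- and NK-like cells at P10 reach 22.2% and neutrophil-like cells stay lowest in both libraries.

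Stromal and vascular classes had low shares at P10 as well. Endothelial-like cells, which line vessels, went from 15.7% at E18.5 to 8.65% at P10 (ratio 0.550), and pericyte- and smooth-muscle-like cells, which wrap them, from 16.8 to 8.95% (ratio 0.532). Fibroblast-like cells had 18.1% at E18.5, and those at P10, in a cluster that carried alveolar RNA, had 9.99%. Myeloid-like cells, mainly macrophages by their leading genes, differed less, with 16.5% at E18.5 and 12.9% at P10 (ratio 0.780). With the myeloid-like clusters that carried alveolar RNA the ratio was 0.732.

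Neutrophil-like cells had the lowest share of the classes measured in each library. Their summed counts gave 5.32% at E18.5 (66 cells) and 6.54% at P10 (303 cells), a ratio of 1.23 and so the other way than the classes above. The median cell hardly differed, at 4.13% and 4.27%. The deepest quartile of P10 neutrophil-like cells had 8.03% and a level of Sftpc that was 56.5% of that in AT2-like cells, against 3.96 to 4.56% with Sftpc at no more than 16.5% in the others. Without the deepest quartile in each library the shares were 4.23% and 4.20%, a ratio of 0.993.

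Lymphocytes stood at the other end. T- and NK-like cells at P10 had 22.2% (378 cells, median cell 22.6%), which was 2.19 times the share of AT2-like cells of the same library, and each depth quartile lay between 20.3 and 24.3%. A second T- and NK-like cluster of 160 cells, which carried alveolar RNA with Sftpc at 72.9% of the AT2-like level, had 12.7%. B-like cells had 15.2% (355 cells, median cell 16.5%). Their deepest quartile had 13.4% with Sftpc at 63.8% of the AT2-like level, and the other quartiles had 15.6 to 19.8% with Sftpc at 13.6 to 16.9%.

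Among epithelial classes at E18.5, club-like cells, the secretory cells of the airway, had the highest share with 19.6% (225 cells). Ciliated-like cells had 11.3% (452 cells) and a median cell of 8.14%. Their share went with depth, from 7.12% in the shallowest quartile to 13.4% in the deepest, and Sftpc went with it, from 5.86 to 21.3% of the AT2-like level. The part of alveolar RNA in the ciliated share was not tested. AT1-like cells, the flat cells of gas exchange, had 17.6% (3094 cells) against 17.0% in AT2-like cells. Which of these was higher depended on the clustering, since the ratio of 1.04 became 0.957 to 0.981 when clusters were made coarser, finer or with the member genes included. The AT1-like cluster led by Ccn2 had 18.6% and the one led by Rtkn2 16.1%. In the coarser clustering a cluster led by Ccn2 (1520 cells) was not named AT1-like. The same held for one in the finer clustering (759 cells) and one with the member genes included (1031 cells). At P10, transitional-like cells, an alveolar state with raised keratins and Areg, had 10.4%, the mixed AT1- and AT2-like cluster 9.81% and AT2-like cells 10.1%.

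Single members were compared in AT2-like cells as CPM, the summed UMIs of a gene scaled to a total of 1000000. The counts come from libraries that read 3′ ends, and CPM was not scaled by gene length. Ratios between the ages still moved with gene length, as given below. Of the 86 members, 83 reached 10 CPM at either time point. Rpl3l and Rpl10l, the muscle and testis paralogs of Rpl3 and Rpl10, and Rpl39l stayed below it, at 0.574, 0.0110 and 0.0884 CPM in P10 AT2-like cells. The 10 members with the highest mean level in AT2-like cells, among them Rps19, Rpl13, Rps20, Rpl21, Rps24, Rps15a, Rps14 and Rps7, held 22.7% of all member UMIs at E18.5 and 20.8% at P10. Rps19, the gene most often mutated in Diamond-Blackfan anaemia, had 4944 CPM at E18.5 against 2608 CPM at P10. Rps14 and Rpl21 differed less, with 2839 and 2540 CPM and with 3367 and 2713 CPM.

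The difference between E18.5 and P10 was uneven over the members. A gene was called lower at a P10 over E18.5 ratio of at most 0.5 and higher at a ratio of at least 2. In AT2-like cells 27 of 83 members were lower, where 9.97% of all 8388 genes tested were, and 4 were higher, where 14.3% of all genes were. The ratio lay below 1 for 74 members and above 1 for 9. The median log2 ratio was -0.84 over the members and 0.18 over all genes tested. With that median of all genes taken as no change, 45 members were lower (13.7% of all genes) and 4 higher (9.64%), with a median of -1.02. Gene length moved with the ratio: the shortest 20% of the other genes, up to 9.27 kb from first to last base, had a median log2 ratio of -0.38, and the longest 20%, from 85.2 kb, one of 0.76. Members are short, 78 of the 83 lying within the shortest group. Set against genes of the same length, 7 of the 83 members were lower, where 9.53% of all genes were, and 5 were higher, where 8.25% of all genes were, so that neither count exceeded the share over all genes. The lower ones were Rps18, Rps15a, Rpl15, Rpl9, Rps7, Rpl11 and Rps24, the higher ones Rps15, Rpl23a, Rpl13a, Rpl5 and Rps12, and the median over the members was -0.38.

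The lowest ratios belonged to members of both subunits. Rps18, a protein of the head of the small subunit, had 2600 CPM at E18.5 against 794 CPM at P10, a ratio of 0.305 (interval 0.302 to 0.308). Rpl15 of the large subunit had 3200 and 1071 CPM, and Rpl9 3496 and 1240 CPM, ratios of 0.335 and 0.355. Rps7 had 3799 and 1424 CPM, and Rps15a 3992 and 1509 CPM, ratios of 0.375 and 0.378. The levels of these 5 lay between 2600 and 3992 CPM at E18.5 and between 794 and 1509 CPM at P10. The last 300 bases of the Rpl9 transcript consist of 50-base words that all occur in other annotated genes as well, 11 in number, and 78.5% of those of Rps18 do, in 8 genes, so reads of both can be lost to or shared with copies. The transcripts used for Rpl15 and Rps15a share none. That of Rps15a was 5179 bases long, where the median of the members called lower was 886, and the ends of its other transcripts were not checked.

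The 4 members called higher were all at a low level at E18.5. Rps15, a small subunit head protein needed for the export of its precursor, had 693 CPM at E18.5 against 1838 CPM at P10, a ratio of 2.65 (interval 2.62 to 2.69). Rpl13a had 576 and 1480 CPM, a ratio of 2.57. Rpl5, which forms the 5S particle with Rpl11 and the 5S rRNA and can bind the p53 regulator Mdm2, had 506 and 1209 CPM, a ratio of 2.39. Its partner Rpl11 had 2773 and 1423 CPM, a ratio of 0.513, so that both members of this particle lay on opposite sides of 1. Rpl23a, at the mouth of the peptide exit tunnel, had 526 and 1215 CPM, a ratio of 2.31. Rps12 came next, with 2028 and 2938 CPM and a ratio of 1.45. At E18.5 the levels of Rps15, Rpl13a, Rpl5 and Rpl23a lay between 506 and 693 CPM, and at P10 between 1209 and 1838 CPM. Shared 3′ ends occur here too. Of the 50-base words of Rpl23a, 80.9% occur in other genes, 23 in number. The same holds for 94.4% of those of Rps12, in 23 genes, and 55.8% of those of Rps15, in 4. The transcripts used for Rpl13a and Rpl5 share none.

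**Figure D2:**
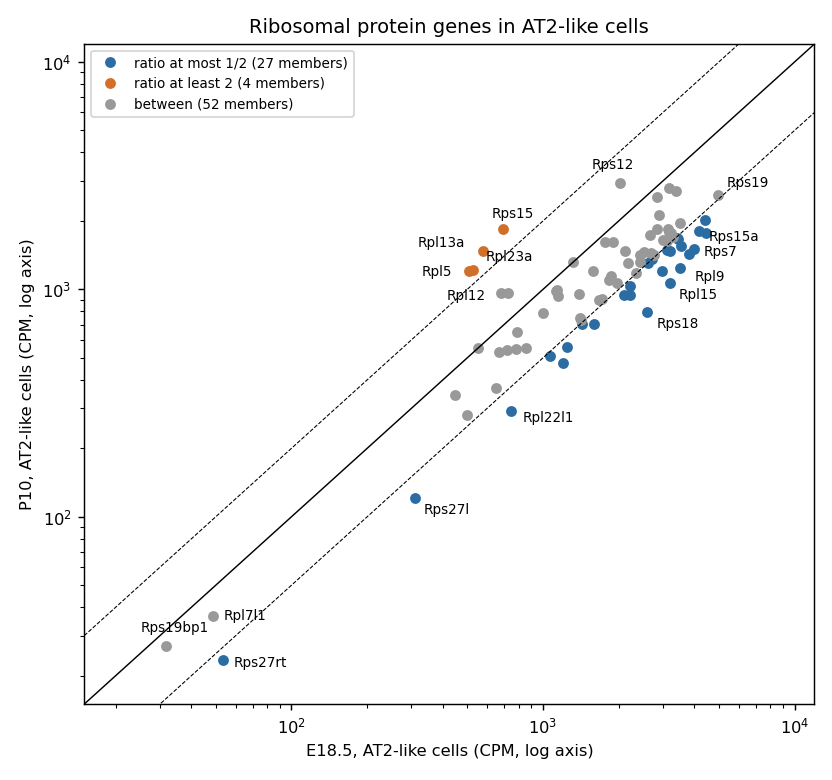
CPM of each of the 83 measured members in AT2-like cells at E18.5 (horizontal, log axis) and at P10 (vertical, log axis). The solid line is equality and the dashed lines are ratios of 0.5 and 2. Most points lie below equality, 27 of them (blue) below the lower dashed line, and Rps15, Rpl13a, Rpl5 and Rpl23a (orange) above the upper one.

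Genes of the family are known for a pyrimidine tract at the start of transcription, and the start sites of these extremes were read for it. The stretches below run from 60 bases before to 20 bases after the start that RefSeq lists, on the coding strand of GRCm38.p6, and capitals mark runs of at least 6 C or T. They are shown to set the 5 members with the lowest ratios, given first, beside those of the 5 with the highest that have a listed start.
Rps18, chr17:33955646-33955725, minus strand: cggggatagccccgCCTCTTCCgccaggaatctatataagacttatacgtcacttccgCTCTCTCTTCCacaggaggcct
Rpl15, chr14:18270967-18271046, minus strand: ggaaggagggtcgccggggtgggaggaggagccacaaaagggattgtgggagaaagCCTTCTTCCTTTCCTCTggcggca
Rpl9, chr5:65391412-65391491, minus strand: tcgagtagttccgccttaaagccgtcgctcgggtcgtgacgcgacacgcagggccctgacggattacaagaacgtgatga
Rps7, chr12:28635934-28636013, minus strand: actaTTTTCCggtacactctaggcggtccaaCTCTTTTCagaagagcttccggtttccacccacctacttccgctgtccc
Rps15a, chr7:118116128-118116207, minus strand: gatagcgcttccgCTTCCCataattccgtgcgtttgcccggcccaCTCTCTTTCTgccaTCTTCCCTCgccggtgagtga
Rps15, chr10:80292371-80292450, plus strand: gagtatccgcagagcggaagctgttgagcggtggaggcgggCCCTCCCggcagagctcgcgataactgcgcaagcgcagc
Rpl13a, chr7:45128726-45128805, minus strand: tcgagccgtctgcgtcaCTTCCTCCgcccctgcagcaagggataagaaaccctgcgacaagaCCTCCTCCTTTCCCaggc
Rpl5, chr5:107900468-107900547, plus strand: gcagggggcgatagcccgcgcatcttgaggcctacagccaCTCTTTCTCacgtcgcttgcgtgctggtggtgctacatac
Rps12, chr10:23787190-23787269, minus strand: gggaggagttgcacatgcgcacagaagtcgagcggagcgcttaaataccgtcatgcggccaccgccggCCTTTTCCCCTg
A run covered or touched the listed start in Rps18, Rpl15 and Rps15a. In Rpl13a and Rps12 a run began at bases 3 and 9, counting the listed start as 1. In Rps7, Rps15 and Rpl5 each run ended before the listed start, and Rpl9 had none in this stretch. The gene bounds of GENCODE vM21 placed some starts elsewhere. There, Rps15 began at base 80292453 of its chromosome, past the stretch, and Rpl5 at base 107900502, ahead of its run. Rps12 began at base 23787275, outside the stretch, while Rps7 began at the listed start. So these runs do not settle whether a tract lies at the cap.

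Of the 86 members, 66 had a listed start. A run of at least 8 C or T on the coding strand within 50 bases of the start was present in 53 of them (80.3%), against 39.3% of all 27025 genes listed, and on the other strand in 16 (24.2%), against 41.1%. Among members called lower in AT2-like cells 16 of 23 had the coding-strand run, and among those called higher 3 of 3. The word CCGGAAGT, bound by ETS factors such as GABP, was found on either strand of the 300 bases in 12 members (18.2%) against 4.31% of all genes. The word AAGATGGC, part of the YY1 motif, was found in 6 members (9.09%) against 3.19%. These are matches of letters and do not show binding.

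Other properties of the genes had weak relations with the ratio in AT2-like cells. Over the 83 members Spearman's rho with the log2 ratio was -0.15 for the length from first to last base, 0.18 for the number of exons, 0.17 for the GC content of the last 300 bases, -0.01 for the share of 3′ words found in other genes and -0.29 for the mean level. It was 0.26 for the number of small nucleolar RNA genes inside the member. Exons and 3′ ends were those of a single annotated transcript per gene. Annotated small nucleolar RNA genes lay inside Rpl13a (4), Rpl5, Rpl23a and Rps12 (3 each), but none inside Rps15. They lay inside 8 of the 27 members called lower, 19 of the 52 called neither way and 3 of the 4 called higher. Genes are not replicates, and all points come from the same 2 libraries, so these values are descriptions only.

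By name there were 34 Rps members, with Rps19bp1 counted among the 34. Of these, 16 were lower and 1 was higher, with a median log2 ratio of -0.94. Over all genes 9.97% were lower and 14.3% higher. Of 49 measured Rpl members, Rpl7l1 among them, 11 were lower and 3 higher, with a median of -0.78. The stalk proteins that recruit elongation factors split: Rplp0, the scaffold, had 3540 CPM at E18.5 against 1548 CPM at P10 (ratio 0.437), while Rplp1 had 1896 and 1616 CPM (ratio 0.852) and Rplp2 1004 and 784 CPM (ratio 0.781). Among 9 genes known from Diamond-Blackfan anaemia, 4 were lower and 1, Rpl5, was higher, beside 27 and 4 of all 83 members.

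Paralogs were followed in pairs, with the reservation that copies with near-identical ends can share reads. Rps27 had 1417 CPM at E18.5 against 730 CPM at P10 (ratio 0.515), and Rps27l, its paralog and a known p53 target, had 310 and 121 CPM (ratio 0.390). Rps27rt, a copy with 1 exon, had 53.4 and 23.5 CPM (ratio 0.440). Rpl22 had 1250 and 559 CPM (ratio 0.447), and Rpl22l1 749 and 292 CPM (ratio 0.390). Rpl36a had 652 and 369 CPM (ratio 0.566), and Rpl36al 778 and 545 CPM (ratio 0.701). In each of these families the members lay below 1, as did 74 of all 83 measured members. Rpl39 had 1204 and 474 CPM (ratio 0.394). Rpl7 had 2517 and 1453 CPM (ratio 0.577) and Rpl7l1 48.6 and 36.4 CPM (ratio 0.749). Rpl3 had 1961 and 1069 CPM (ratio 0.545), Rps4x 3429 and 1666 CPM (ratio 0.486), and Rpl10 1313 and 1323 CPM (ratio 1.01). Rps19bp1, which is no ribosomal protein, had 31.6 and 26.9 CPM (ratio 0.852). Outside the rule, Fau had 3535 and 2399 CPM (ratio 0.679).

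The same comparison was made in 4 other classes, which hold other cells of the same 2 libraries. The percentage beside each count is the share of all genes tested that met the same limit. Members were set against genes of the same length in AT2-like cells only, so the counts in these 4 classes are without that comparison. In endothelial-like cells 38 members were lower (8.30% of all genes) and 4 higher (14.2%), and in pericyte- and smooth-muscle-like cells 40 were lower (10.1%) and 4 higher (16.1%). Of the 27 members lower in AT2-like cells, 26 were lower in both, which is 26 of the 38 and 26 of the 40. The same overlap over all genes was not counted. In myeloid-like cells 7 members were lower (13.5%) and 5 higher (16.4%), with a median log2 ratio of -0.51. In neutrophil-like cells 1 member was lower (11.0%) and 11 were higher (26.9%), with a median of 0.28 beside 0.27 over all genes. The 1 lower member there was Rpl3l, counted with 2 UMIs at E18.5 and 8 at P10.

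Rps15, Rpl13a, Rpl5 and Rpl23a were called higher in all 5 classes. The log2 ratio of Rps15 was 1.41 in AT2-like cells and 1.47 in the endothelial-like, 1.18 in the pericyte- and smooth-muscle-like, 1.65 in the myeloid-like and 2.10 in the neutrophil-like class. That of Rpl23a was 1.21, 1.21, 1.07, 1.63 and 2.34 in the same order. At the other end, Rps18 had -1.71, -1.74, -1.79, -1.53 and -0.75, and Rpl15 had -1.58, -1.58, -1.58, -1.10 and -0.45. In all 5 classes 7 members lay above 1 and 23 below. Another 42 lay below 1 in the other 4 classes and above 1 in neutrophil-like cells. No such counts over all genes were made, for these or for the members called higher in all 5 classes. In the 49 and 227 neutrophil-like cells without the deepest quartile, where the summed share was alike at both ages, the members differed among themselves: Rps15 had 18 UMIs at E18.5 and 367 at P10 (log2 ratio 1.80), Rpl5 9 and 152 (1.53), Rpl23a 14 and 250 (1.61), Rps12 34 and 593 (1.58), and Rps18 56 and 113 (-1.54). There, 5 of 84 members were lower (23.3% of all genes) and 7 higher (15.2%), with a median of -0.07. Of the 5 lower, Rps19bp1 was counted with 1 UMI in each library and Rpl3l with 2 and 4. Sftpc in the pericyte- and smooth-muscle-like class was at 23.5% of the AT2-like level at E18.5 and 37.1% at P10. In the myeloid-like class it was at 17.8 and 19.6%, and in the whole neutrophil-like class at 6.68 and 40.6%. The endothelial-like levels are given above. The part that alveolar RNA in the non-alveolar classes has in these patterns was not tested. A library-wide difference and an age-wide one cannot be told apart with 1 library each.

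**Figure D3:**
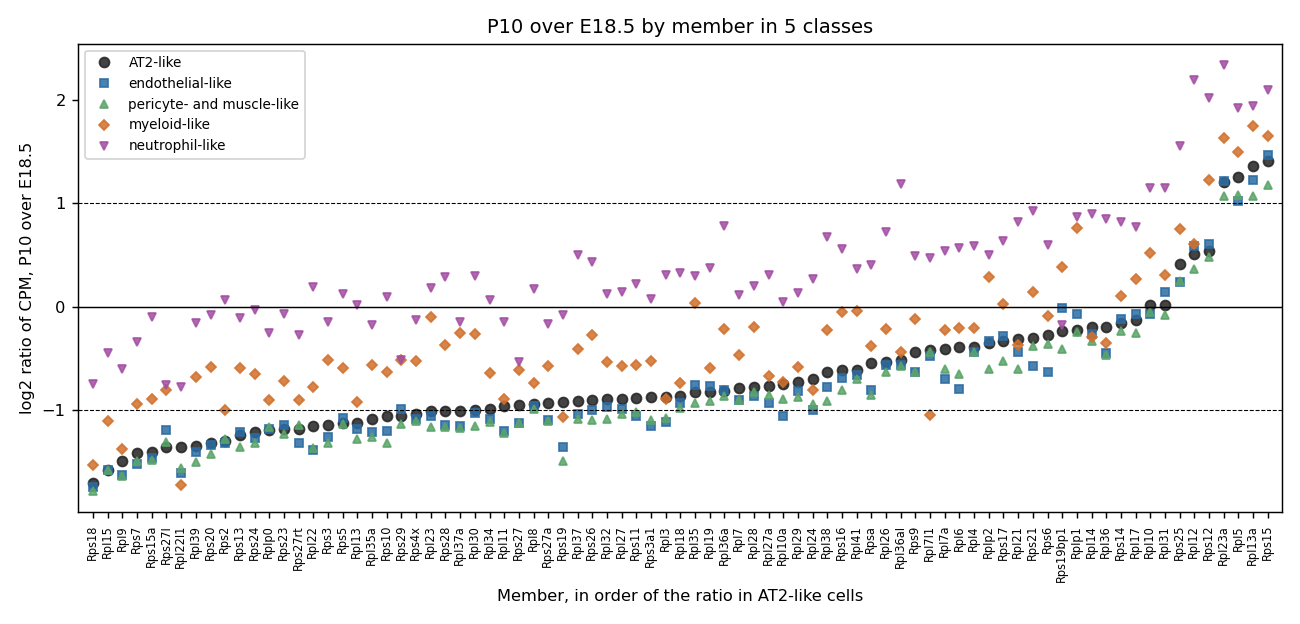
log2 ratio of CPM, P10 over E18.5 (vertical axis), of most of the measured members (horizontal axis, in the order of the ratio in AT2-like cells) in 5 classes, 1 mark per class. Dashed lines are ratios of 0.5 and 2. Rps18 is lowest in AT2-like cells at -1.71, Rps15, Rpl13a, Rpl5 and Rpl23a lie above 1 in every class, and the neutrophil-like marks lie higher throughout most of the order.

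Within a library, where age and preparation are shared, alveolar classes differed little in single members. Between AT1- and AT2-like cells at E18.5 no member was lower (8.60% of all genes) and none was higher (13.0%), with a median log2 ratio of 0.01. The member with the largest difference was Rps19, with 8951 CPM in AT1-like and 4944 CPM in AT2-like cells (log2 ratio 0.86), and in the other direction Rpl36al, with 501 and 778 CPM (-0.64). At P10 the log2 ratios of transitional-like over AT2-like cells stayed between -0.06 and 0.14 for all 83 members. In ciliated-like against AT2-like cells at E18.5, Rps12 (857 against 2028 CPM) and Rpl10 (650 against 1313 CPM) were lower (5.08% of all genes) and none was higher (25.9%). Rps27l went the other way than the sum, with 511 CPM in ciliated-like and 310 CPM in AT2-like cells.

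T- and NK-like cells at P10 had 45 members higher than AT2-like cells (27.8% of all genes) and none lower (21.0%), with a median log2 ratio of 1.07. With the cluster that carried alveolar RNA, 14 members were higher (17.0%). Rpl12 had 4409 against 968 CPM (log2 ratio 2.19), Rpsa 4114 against 958 CPM (2.10) and Rpl39 2011 against 474 CPM (2.09). Rpl10 (1417 against 1323 CPM), Rpl36al (600 against 545 CPM) and Rpl21 (3103 against 2713 CPM) were nearly level, and Rps27l was at 89.0 against 121 CPM. Neutrophil-like cells at E18.5 had 78 of 84 members lower than AT2-like cells (32.2% of all genes) and 1 higher (19.7%), the latter being Rpl3l with 2 UMIs. At P10 they had 3 members lower (15.4%) and none higher (16.6%).

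As a share of all member UMIs, which does not move with the sum, a few members stood out by class. Rps27l, the least abundant of these, ranged at P10 from 0.0401% in T- and NK-like cells to 0.242% in myeloid-like cells, and at E18.5 from 0.179% in fibroblast-like to 0.454% in ciliated-like cells. Rps9 was highest in neutrophil-like cells at both ages, with 3.26% at E18.5 and 3.71% at P10, where the other classes had 1.43 to 1.70% and 1.74 to 2.10%. Rps19 had 5.08% in AT1-like cells at E18.5 and 2.48 to 2.96% in the other classes, and at P10 its highest value, 3.07%, was in the mixed AT1- and AT2-like cluster and its lowest, 1.41%, in T- and NK-like cells. Rpl21 and Rpl36al were highest in AT2-like cells at both ages, Rpl21 with 1.98 and 2.67% and Rpl36al with 0.458 and 0.538%. Rpl21 was lowest in myeloid-like cells at both, with 1.21 and 1.20%. Rpl12, at the base of the stalk, and Rpsa were highest in T- and NK-like cells at P10, with 1.99 and 1.85%, against 0.954 and 0.944% in AT2-like cells. Rplp1 was highest in myeloid-like cells at both ages, with 1.54 and 3.35%.

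**Figure D4:**
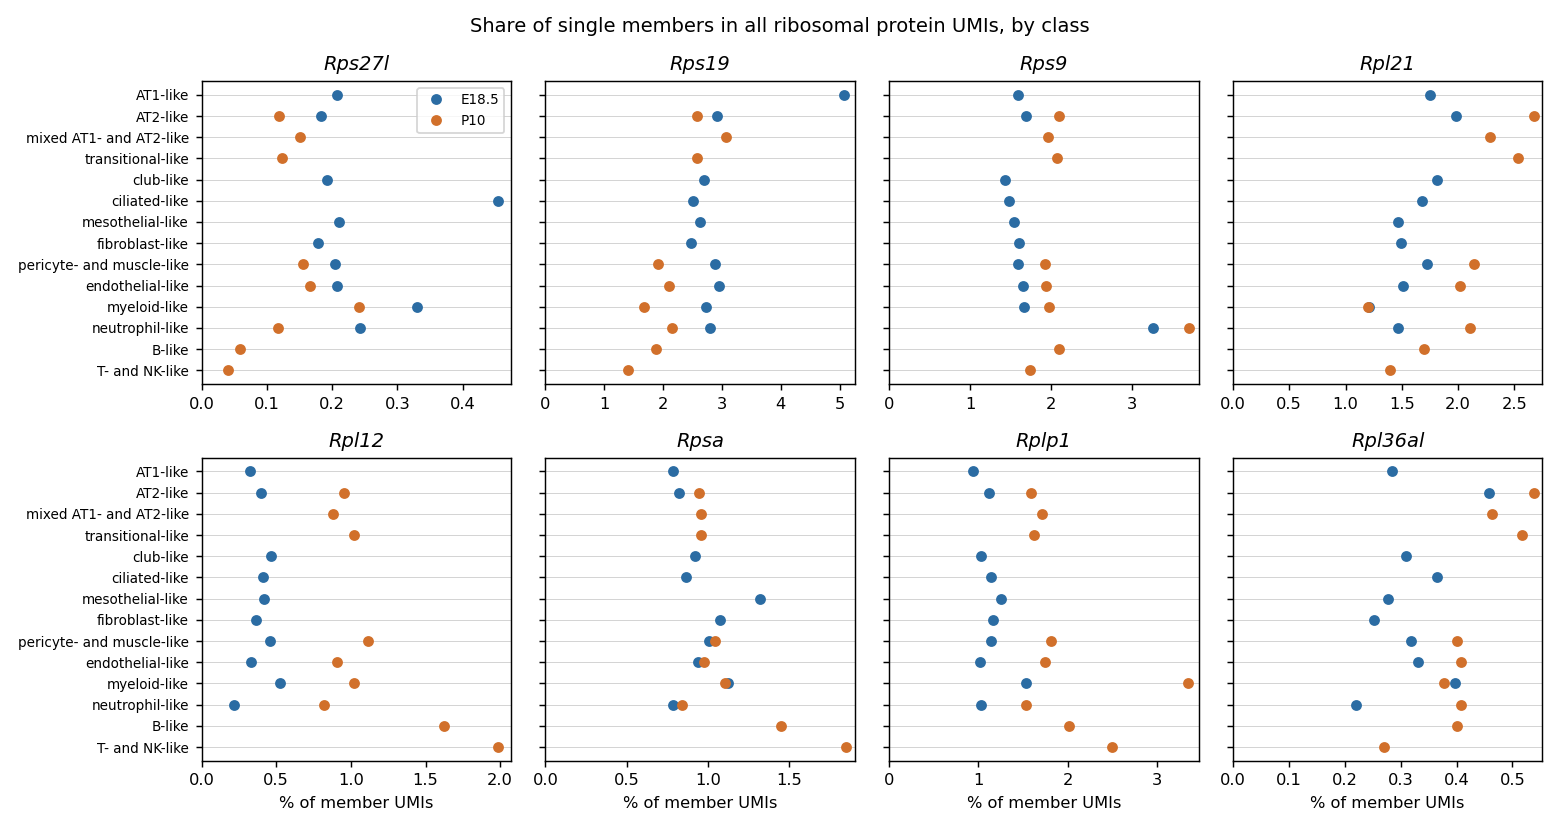
Share of all ribosomal protein UMIs (%, horizontal axis from 0) held by each of 8 members in each class, E18.5 in blue and P10 in orange, summed over the cells of a class. Rps19 stands apart in AT1-like cells at E18.5 with 5.08%, Rps9 in neutrophil-like cells at both ages, Rps27l in ciliated-like cells with 0.454%, and Rplp1 in myeloid-like cells at P10 with 3.35%.

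Other genes of translation were compared in the same AT2-like cells, where 9.97% of all genes were lower and 14.3% higher. Of 20 elongation factors and further TOP genes measured, 5 were lower and none higher, with a median log2 ratio of -0.55. They included Btf3 (1037 and 406 CPM) of the nascent-chain-associated complex, Gas5 (517 and 212 CPM), a host of small nucleolar RNAs, and Eef1b2 (1044 and 487 CPM), an exchange factor of elongation factor 1. Of 22 initiation factors, 5 were lower and none higher, with a median of -0.46. Eif4ebp1, the translational repressor under mTORC1 control, had 72.2 and 22.4 CPM, Eif1 2916 and 1158 CPM, and Eif5a 406 and 190 CPM. Ribosome biogenesis genes had 2 of 24 lower, Polr1d and Npm1, which is near the share of all genes, none higher and a median of -0.20. The mitochondrial ribosome, built from a separate set of proteins, had 11 of 53 members lower and none higher, with a median of -0.56. Among those with a mean of at least 50 CPM, Mrps33, Mrps14 and Mrpl33 had the lowest ratios (0.398, 0.406 and 0.413), and Mrpl22, at 36.3 and 13.6 CPM, had 0.375. Of 20 regulators of growth, 15 reached 10 CPM. Of these none was lower and 1, Rptor, the mTORC1 subunit that binds its substrates, was higher (23.5 and 51.6 CPM), with a median of 0.17. Myc, Mycn and Mycl, transcription factors that drive growth, lay below 10 CPM and had ratios of 0.373, 0.148 and 0.328, values that were seen before these genes were singled out. No test compares these lists with the members, and the lists were not set against genes of the same length.

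Some clusters stayed unnamed, with 2871 of the 12027 kept cells at E18.5 and 1427 of 14086 at P10. Those of low depth and high mitochondrial share, 6 and 11 at E18.5 (657 and 249 cells, medians of 1992 and 1966 UMIs and of 4.12 and 6.11% mitochondrial UMIs), had 14.7 and 13.5%, and cluster 10 at P10 (283 cells, 1965 UMIs, 6.49% mitochondrial) had 8.85%. These values were low for their library. The P10 cluster led by Sprr1a, Srxn1, Gdf15 and other stress genes (229 cells) had 11.8%, above the AT2-like clusters. An E18.5 cluster led by Cbr3, Srxn1 and Sprr1a (228 cells) had 18.2%, also above the AT2-like clusters of its library. The largest unnamed cluster, 1 at E18.5 (1526 cells), had 17.7%. Among myeloid-like clusters at E18.5, the 1 led by division genes such as Pclaf, Top2a and Mki67 (54 cells) had 16.4%, between the 17.0 and 14.8% of the clusters led by Wfdc17 and by C1qa.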

How the data were processed

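Unscaled UMI counts were deposited for each gene and cell barcode. Per the file headers, the authors made them with Cell Ranger 7.0.1. The submitters' processing notes name mm10 and Seurat 4.0.0 without the role of the latter. The treatment of intronic reads is not stated. The labels name a version 2 kit.

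The members, gene lists and markers were chosen with earlier results of these data known. Each library was clustered without the member genes (scanpy 1.11.5, leidenalg 0.10.2; 10000 counts per cell, 2000 variable genes, 30 principal components, 15 neighbours, Leiden resolution 1), and clusters were named from marker lists. Counts were summed per class with at least 50 cells, without non-alveolar clusters carrying alveolar RNA. That flag rested on the median level of the AT1 or AT2 markers, so the classes kept still held some alveolar RNA. At P10, Sftpc was at 44.8% of the AT2-like level in the B-like class and at 40.6% in the neutrophil-like class. In ratios a sum of 0 was set to 3 counts. Shares carry Clopper-Pearson intervals and ratios exact conditional binomial intervals. The calculation of ratios was run on simulated counts with set folds and counting error only. That run cannot speak to differences between animals or libraries. Scrublet marked 2 and 1 cells, too few to have worked, so doublets remain.

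Named genes were the 10 members with the highest mean CPM in AT2-like cells, and, at a mean of at least 50 CPM, the 5 highest and 5 lowest ratios and the 5 that varied most over classes, with paralogs, stalk and 5S particle members, Fau and the 3 largest ratios of every other list. Members named in comparisons of other classes were chosen after their values were seen. Results of some genes, and the alternative that widened the member list, are not reported here. Gene positions came from GENCODE vM21, and start sites from RefSeq on GRCm38.p6.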

Additional observations from a re-analysis of the deposited data

Results flagged for a closer look

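The summed share of the ribosomal protein genes in neutrophil-like cells was 1.23 times as high at P10 as at E18.5, while the AT2-, endothelial-, pericyte-, fibroblast- and myeloid-like classes had ratios below 1. The difference between the classes was not tested, since there is 1 library per time point. The median neutrophil-like cell and the cells without the deepest quartile give ratios near 1, as described above.

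Some genes with -ps in their symbol, annotated as pseudogenes of members and left out by the rule, had UMIs above the limit of 3 that a count of 0 allows. Rpl9-ps6 had 73.3 CPM at E18.5 and 28.8 at P10. Rpl10-ps3 had 37.2 CPM at E18.5 and 43.0 at P10. Rpl36a-ps1 had 20.5 CPM at E18.5 and 10.4 at P10. Rpl9-ps1 had 0.0948 CPM at E18.5 and was within that limit at P10, and Rpl36-ps4 was within it in both libraries.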

How the results depend on the processing

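The P10 over E18.5 ratio of the summed share was below 1 under every alternative run, for the libraries and for AT2-like cells. For the libraries it was 0.622 with all deposited barcodes, 0.620 under a stricter cell filter, 0.621 without mitochondrial UMIs, 0.694 without the 50 most abundant other genes, 0.615 as the median over cells and 0.625 in cells of 5000 to 15000 UMIs. For AT2-like cells it was 0.598 without mitochondrial UMIs, 0.625 without the 50 most abundant other genes, 0.607 as the median over cells, 0.605 in cells of 5000 to 15000 UMIs, 0.599 and 0.598 at Leiden resolutions of 0.5 and 2, 0.602 with the members kept in the clustering and 0.598 without the 10% highest doublet scores. Members lower in AT2-like cells numbered 45 with median-of-ratios size factors, 7 against genes of the same length and 54 at a ratio of 1.5, and 23 to 27 under the other alternatives, while 4 or 5 were higher throughout. The share of AT1- over AT2-like cells turned to 0.957 and 0.981 at resolutions of 0.5 and 2 and to 0.972 with the members kept. The P10 over E18.5 share of neutrophil-like cells turned to 0.993 without the deepest quartile, an alternative chosen after seeing the data, as were those with clusters carrying alveolar RNA. The cause of these shifts was not tested. Of the 31 members called in AT2-like cells none changed direction under 8 alternatives, and 30 of the 248 values no longer passed a ratio of 2. No paired analysis was possible because each time point has 1 library. Free RNA and doublets limit what the non-alveolar classes show, and small classes such as the 66 neutrophil-like cells at E18.5 have few UMIs per member.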
